A study of Bos taurus with 27 samples.

Results

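The comparison described here sets 6 long cattle (Bos taurus) embryos from dams fed an omega-3 diet against 11 short embryos from dams fed an omega-6 diet, 17 of the 27 embryos in the series. Members were taken from the labelled maternal diet and size class. All were whole embryos of day 15 of pregnancy, each sequenced as 1 RNA library. The long omega-3 embryos carry the numbers 01, 04, 06, 07, 10 and 16, with size numbers of 10.5 to 20.3 (median 12.3), in a unit the labels do not state. The short omega-6 embryos carry the numbers 18 to 26, 28 and 30, with size numbers of 1.4 to 7.7 (median 2.5). The letter m or f in the titles, read as male or female, was m in 4 and f in 2 long embryos, and m in 5 and f in 6 short omega-6 embryos. The remaining 10 embryos of the series were short and from omega-3 dams, with size numbers of 0.4 to 9.5, and belong to neither group.

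Diet and size class differ together in this comparison, and no long omega-6 embryo was analysed here, so the 2 factors cannot be told apart and every difference below is their joint difference. Dams are not named, and embryos may share a dam, and the p-values therefore speak of embryo-to-embryo spread and not of spread between dams. An embryo was measured as a whole: a higher transcript level in each cell and a larger share of the cells that make it cannot be told apart in these data.

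As background, the cattle embryo at this stage lies free in the uterus. Its outer layer, the trophectoderm, grows and lengthens from a sphere through a tube to a filament, while the embryonic disc stays small. The elongating trophectoderm secretes interferon tau, the signal by which the mother's body recognises pregnancy. Omega-3 and omega-6 fatty acids are polyunsaturated fatty acids that the mother takes up with her diet. They enter membranes and are precursors of prostaglandins and related lipid mediators. The files give genes as Ensembl identifiers without names, so genes are described here by identifier, level and pattern and not by function.

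Total counts of the 17 libraries ran from 17931620 to 28560043 (median 23957569) and did not differ between the groups beyond their spread (two-sided exact permutation p = 0.615 over 12376 arrangements; adjusted 0.922 over 3 measures). Short omega-6 embryos 22 and 25 stood apart from the rest. Their TMM scaling factors were 0.773 and 0.888, against 0.964 to 1.09 in the other 25 embryos of the series. On the first principal component of the 17 embryos (37.2% of the variance) they lay at 79.2 and 80, and the other 15 between -38 and 28.7. Long embryo 07, titled f, went against its letter. Of the 2 genes at 10 CPM or more in all 15 m embryos and under 1 CPM in the other 11 f embryos, it held both within the range of the m embryos, at 38.6 and 41.8 CPM. CPM are counts divided by the TMM-scaled library size and set to a shared total.

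The 2 groups differed in 2292 of 11919 tested genes (19.2%) by edgeR's quasi-likelihood test at an adjusted p below 0.05. Levels in the long embryos were higher in 1067 (8.95%) of the tested genes, and lower in 1225 (10.3%). Pooled, the higher genes changed more: their median log2 fold change was 0.73, against -0.45 for the lower genes and 0 over all tested genes. The least counted genes went the other way, as given below. A change of 2-fold or more was seen in 323 higher (2.71%) and 147 lower genes (1.23%), and one of 4-fold or more in 62 and 33. Among the 9627 genes that were not called, 8043 (83.5%) had a 95% interval that stayed inside a 2-fold change in both directions. Without embryos 22 and 25, 2154 of 11869 genes (18.1%) were called, 1122 higher (9.45%) and 1032 lower (8.69%), with 289 (2.43%) and 110 (0.927%) changed at least 2-fold. Without long embryo 07, 2007 genes were called, 904 higher and 1103 lower. The count rested most on long embryo 16: without it 827 genes were called, and 248 changed at least 2-fold. It was 1285 without long embryo 04, 1523 without 01, and 3688 with limma-voom.

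**Figure D1:**
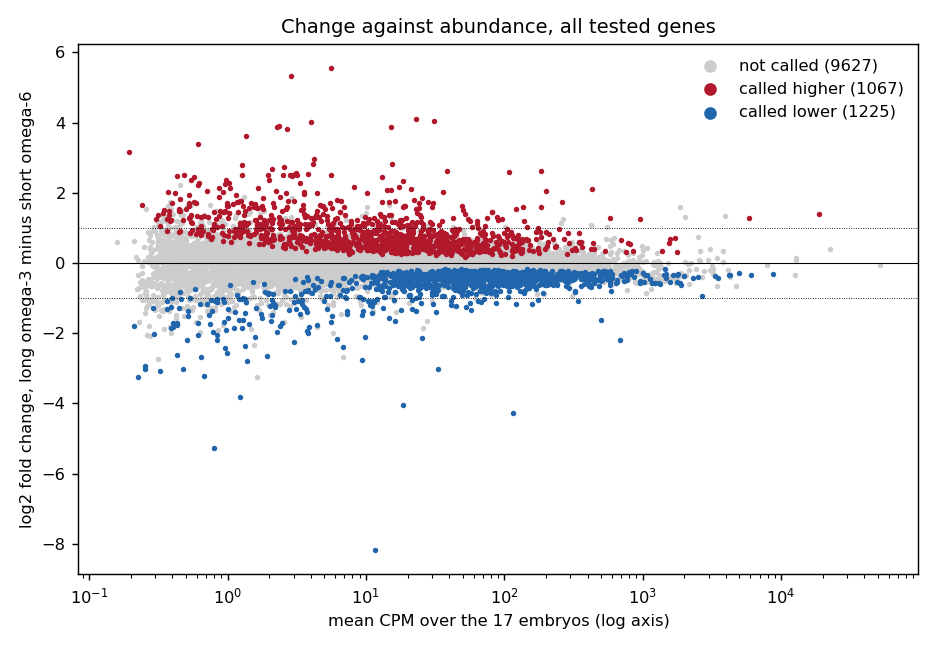
Each point is 1 of the 11919 tested genes, placed by its mean CPM over the 17 embryos (x, log axis) and its log2 fold change, long omega-3 minus short omega-6 (y); red and blue mark the 1067 genes called higher and the 1225 called lower, and dotted lines mark 2-fold. Blue points are dense among highly counted genes at small changes, and points of both colours reach larger changes among genes with few counts.

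The direction of change differed with abundance. With genes ordered by mean CPM over the 17 embryos and divided into 3 classes of 3973, the most counted class held 233 higher and 762 lower genes, so 23.4% of its calls were higher. The middle class held 410 and 316 (56.5% higher), and the least counted class 424 and 147 (74.3% higher). The lower genes of the most counted class changed little, with a median of -0.41, and 17 of the 762 changed at least 2-fold. Its higher genes had a median of 0.55. In the middle class the medians were 0.61 for higher and -0.44 for lower genes. In the least counted class the lower genes changed more, with a median of -1.26 against 1.01 for the higher genes. There 101 of the 147 lower and 215 of the 424 higher genes changed at least 2-fold. Without embryos 22 and 25 the shares of calls that were higher were 29.8%, 62.7% and 76%, in the same order of classes. With size factors as in DESeq2 they were 21.7%, 53.2% and 73.1%. All of these are relative changes, since scaling takes rises and falls to balance over the genes. Genes with few counts may need larger changes to be called, so the medians do not compare all genes of the classes.

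Among the 100 most counted genes 7 were called higher and 26 lower, and among the 500 most counted 27 and 128. The following genes of the top 10 were singled out after their values were seen, and are given by rank because the files do not name them. Ranks follow counts and not counts per length, so they do not order the genes by number of transcripts.

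The gene ranked 10 had the clearest difference among them. In long omega-3 embryos it ran from 7310 to 14300 CPM (median 8770), in short omega-6 embryos from 1910 to 6530 (median 3320). Every long embryo lay above every short omega-6 embryo, of which the largest, 26, came nearest. The log2 fold change was 1.30 ± 0.31 (SE; edgeR adjusted p = 0.00813), and 1.22 without embryos 22 and 25 (adjusted p = 0.0152). Short omega-3 embryos ranged from 1140 to 10600 CPM (median 4880).

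The gene ranked 3 ran from 29200 to 39900 CPM in long omega-3 embryos (median 30200), a narrow range but for embryo 04 at the top. In short omega-6 embryos it ran from 2880 to 31300 (median 7910). The groups overlapped through embryo 26 alone, at 31300 CPM, and the next short omega-6 embryo, 21, held 20500. The log2 fold change of 1.41 ± 0.50 (SE) was close to the threshold (edgeR adjusted p = 0.0482), and without embryos 22 and 25 it was 1.36 and was no longer called (adjusted p = 0.0732).

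The most counted gene ran from 46200 to 55000 CPM in long omega-3 embryos (median 52800) and from 34500 to 60500 in short omega-6 embryos (median 55100). The groups overlapped, and the lowest value belonged to embryo 22. Its log2 fold change was -0.04 (95% interval -0.27 to 0.18; edgeR adjusted p = 0.799), and -0.09 without embryos 22 and 25 (adjusted p = 0.425).

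In 322 genes the 2 groups did not overlap at all. Every long omega-3 embryo lay above every short omega-6 embryo in 191 genes (1.6% of those tested), and below in 131 (1.1%). All but 3 of the first and 1 of the second were also called by edgeR. Most were not large changes: the median log2 fold change was 0.96 over the 191 genes and -0.45 over the 131. Of the 323 genes called at least 2-fold higher 88 were free of overlap, and of the 147 called at least 2-fold lower 17 were. Of those called at least 4-fold, 23 of 62 and 5 of 33 were. Without embryos 22 and 25 the numbers free of overlap were 270 (2.27%) and 177 (1.49%). Leaving out short omega-6 embryo 26 raised the total from 322 to 628, and leaving out long embryo 07 raised it to 508.

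The naming rule, which asks among other things for groups that do not overlap, was met by 151 higher and 120 lower genes. The first 2 of each are described. ENSBTAG00000000369 had the largest rise by the rule. It ran from 1.99 to 14.4 CPM in long omega-3 embryos (median 6.6) and from 0.0734 to 1.85 CPM in short omega-6 embryos (median 0.337). The gap between the groups was narrow, between long embryo 06, the smallest long embryo, and short omega-6 embryo 26, the largest of its group. Means were 6.73 ± 4.31 (SD, n = 6) and 0.484 ± 0.486 CPM (SD, n = 11), and the log2 fold change was 3.82 ± 0.55 (SE; edgeR adjusted p = 0.00105), a 14.1-fold difference. It was 3.68 ± 0.59 without embryos 22 and 25 (adjusted p = 0.00277).

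ENSBTAG00000022671 ran from 7.11 to 13.5 CPM in long omega-3 embryos (median 9.25) and from 0.125 to 2.66 CPM in short omega-6 embryos (median 1.25). The lowest long embryo thus lay well above the highest short omega-6 embryo. Means were 9.69 ± 2.41 (SD, n = 6) and 1.22 ± 0.867 CPM (SD, n = 11). The log2 fold change of 2.96 ± 0.53 (SE; edgeR adjusted p = 0.00186) was 2.91 ± 0.57 without embryos 22 and 25 (adjusted p = 0.00426).

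ENSBTAG00000012275 showed the largest fall by the rule. It ran from 4.36 to 7.82 CPM in long omega-3 embryos (median 5.72) and from 17.3 to 109 CPM in short omega-6 embryos (median 43.8). All long embryos held similar low levels, and embryo 22 was the lowest of the short omega-6 embryos. Means were 5.81 ± 1.5 (SD, n = 6) and 47.8 ± 27.2 CPM (SD, n = 11), and the log2 fold change was -3.01 ± 0.53 (SE; edgeR adjusted p = 0.00172), 8.06-fold lower. It was -3.13 ± 0.54 without embryos 22 and 25 (adjusted p = 0.00363).

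ENSBTAG00000008493 ran from 1.62 to 2.59 CPM in long omega-3 embryos (median 2.01) and from 3.06 to 32 CPM in short omega-6 embryos (median 14.3). Embryo 22 again came nearest to the long embryos, and embryo 25 lay farthest from them. Means were 2.06 ± 0.385 (SD, n = 6) and 13.4 ± 8.89 CPM (SD, n = 11). The log2 fold change of -2.78 ± 0.74 (SE; edgeR adjusted p = 0.0136) was -2.76 ± 0.71 without embryos 22 and 25 (adjusted p = 0.0133). None of these 4 genes lost its call when any single one of the 17 embryos was left out.

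**Figure D2:**
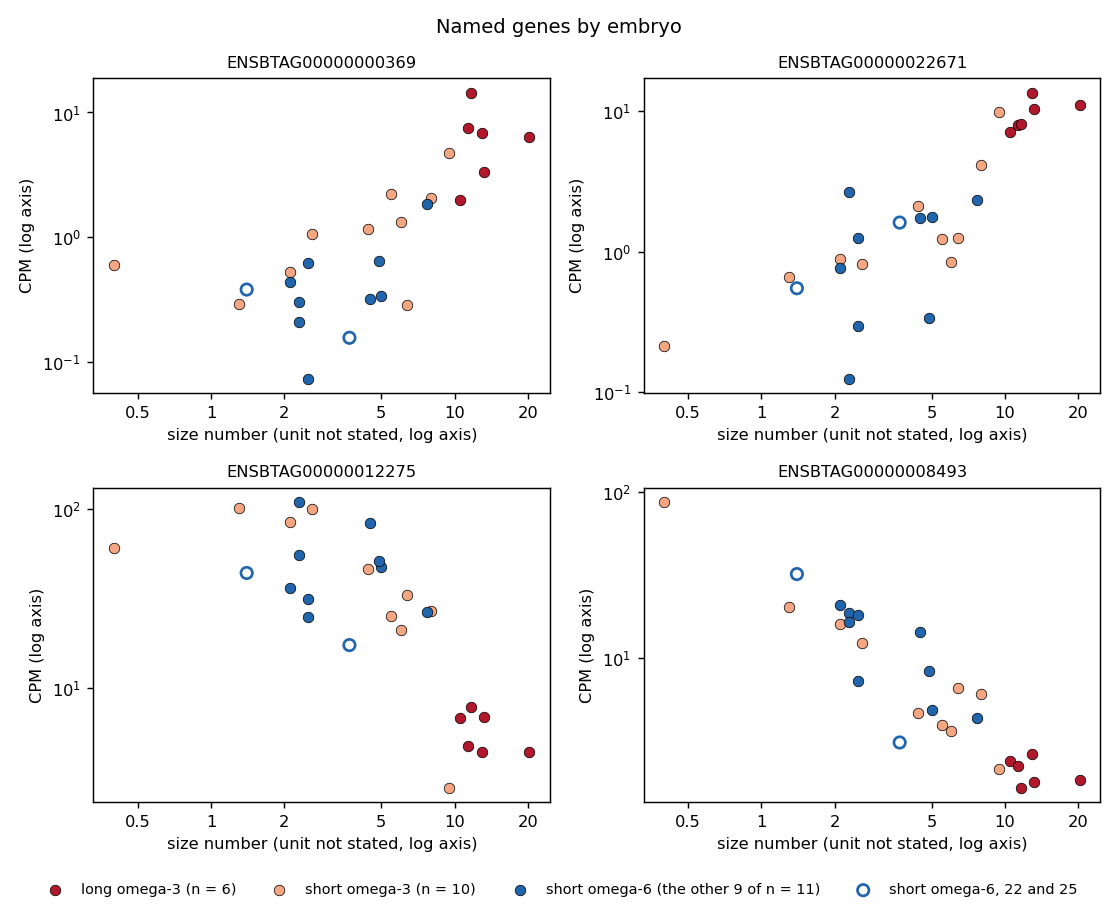
CPM (y, log axis) of the 4 named genes in all 27 embryos against the size number (x, log axis, unit not stated), with open circles for short omega-6 embryos 22 and 25. In each panel the 6 long omega-3 embryos are clear of the 11 short omega-6 embryos, because the naming rule asked for this. The short omega-3 embryos, which the rule did not use for this, run from the level of the small embryos to that of the long ones.

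The short omega-3 embryos share a diet with one group and a size class with the other. Within that class size still differed, with a median size number of 4.95 in short omega-3 and 2.5 in short omega-6 embryos. The fit has no size term, so its contrast between diets among short embryos is not one at equal size. Contrasts with them come from the same fit and share embryos with the comparison above, so they are given side by side and not as support. ENSBTAG00000000369 differed by 2.22 ± 0.53 (SE) between long and short omega-3 embryos (edgeR adjusted p = 0.0398) and by 1.6 ± 0.52 between the diets among short embryos, omega-3 minus omega-6 (adjusted p = 0.527). For ENSBTAG00000022671 the values were 2.21 ± 0.53 (edgeR adjusted p = 0.0398) and 0.75 ± 0.48 (adjusted p = 0.54). For ENSBTAG00000012275 they were -3.11 ± 0.54 (edgeR adjusted p = 0.012) and 0.10 ± 0.39 (adjusted p = 0.921). For ENSBTAG00000008493 they were -2.96 ± 0.73 (edgeR adjusted p = 0.0433) and 0.18 ± 0.57 (adjusted p = 0.893). Each of the 4 genes thus passed the test between size classes under the omega-3 diet, where 169 of all 11919 genes did (1.42%). Between diets among short embryos edgeR called 0 of the 11919 genes (0%), with 1059 at an unadjusted p below 0.05, so the lack of a call there is not particular to these 4. Over the 1067 higher genes the median log2 differences were 0.51 and 0.21 in these 2 contrasts, over the 1225 lower genes -0.27 and -0.16, and over all tested genes -0.01 and 0.01.

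The 10 short omega-3 embryos did not enter the choice of the 322 genes free of overlap, so their place between the ranges of the compared groups could be read from them. A gene was counted on the long side where the embryo lay in or beyond the long omega-3 range, and on the short side where it lay in or beyond the short omega-6 range. The 4 smallest, numbers 14, 13, 05 and 12 with size numbers of 0.4 to 2.6, were on the short side in 90.4% to 97.8% of the 322 genes and on the long side in 1.24% to 4.04%. Embryo 14, the smallest, lay beyond the whole short omega-6 range, farther from the long embryos, in 84 genes, among them ENSBTAG00000008493 at 87.1 CPM. The largest, 11, with a size number of 9.5, was on the long side in 236 of the 322 genes (73.3%), beyond the long range in 27 of them, and on the short side in 42 (13%). It is labelled short and held 4.73 CPM of ENSBTAG00000000369 and 9.81 CPM of ENSBTAG00000022671, both inside the range of the long embryos. Its 2.74 CPM of ENSBTAG00000012275 lay below all 6 long embryos. The next largest, 02, at a size number of 8, was on the long side in 30.1%. Size number did not order the embryos fully. Embryo 17, at 6.4, was on the short side in 91.3% of the genes, and embryo 03, at 5.5, in 53.1%.

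**Figure D3:**
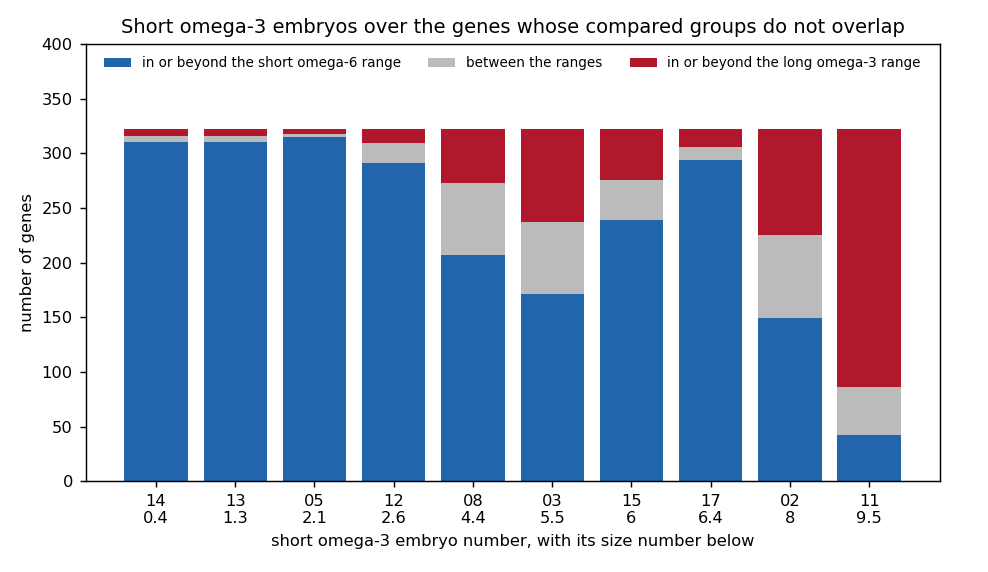
Bars give, for each of the 10 short omega-3 embryos in order of size number (x, embryo number with size number below), how many of the 322 genes (y) lay in or beyond the short omega-6 range, between the ranges, or in or beyond the long omega-3 range. Embryo 11, with 236 genes, is the only one of the 10 with most genes on the long side.

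The largest short omega-6 embryo was, of its own group, the one most often nearest the long embryos. The genes free of overlap cannot place it as they placed the short omega-3 embryos. By their choice it lies outside the long omega-3 range in all of them. Embryo 26, with a size number of 7.7, was the short omega-6 embryo nearest the long embryos in 39.9% of the 1067 higher and 41.8% of the 1225 lower genes. Over all tested genes it was the highest of the 11 in 11.5% and the lowest in 11.2%. On the side of the long embryos, 07 was nearest the short ones in 25.2% of the higher and 41.4% of the lower genes, and 06, the smallest long embryo, in 21.6% and 19.6%. Embryo 07 was the lowest of the 6 long embryos in 21.3% of all tested genes and the highest in 21.9%. For embryo 06 these all-gene shares were 11.3% and 12.5%. Embryo 16 was nearest the short embryos least often, in 5.9% and 4.73%, against all-gene shares of 17.9% lowest and 18.5% highest. The embryo with the largest size number, 01 at 20.3, was nearest in 16.5% and 14%. This was close to its all-gene shares of 18.8% lowest and 16.5% highest.

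The level of the called genes was also followed embryo by embryo. A fit of the 17 compared embryos alone called 1571 of 11684 genes (13.4%), 793 higher (6.79%) and 778 lower (6.66%). For each embryo the median difference from the short omega-6 mean was taken over these genes, in log2 CPM. Since the genes were called between the same 17 embryos, the distance between the 2 groups is largely set by that choice and tests nothing. Over the higher genes long embryos lay at 0.71 to 1, short omega-6 embryo 26 at 0.43, and the other 10 short omega-6 embryos at -0.29 to 0.18. Short omega-3 embryos, which did not choose these genes, ran from -0.34 in embryo 14 to 0.83 in embryo 11. Over the lower genes long embryos lay at -0.58 to -0.38, embryo 26 at -0.31, and embryos 22 and 25 highest at 0.24 and 0.3. Over all tested genes no embryo differed by more than 0.03, a value that is largely set by the scaling, which centres each embryo near 0.

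**Figure D4:**
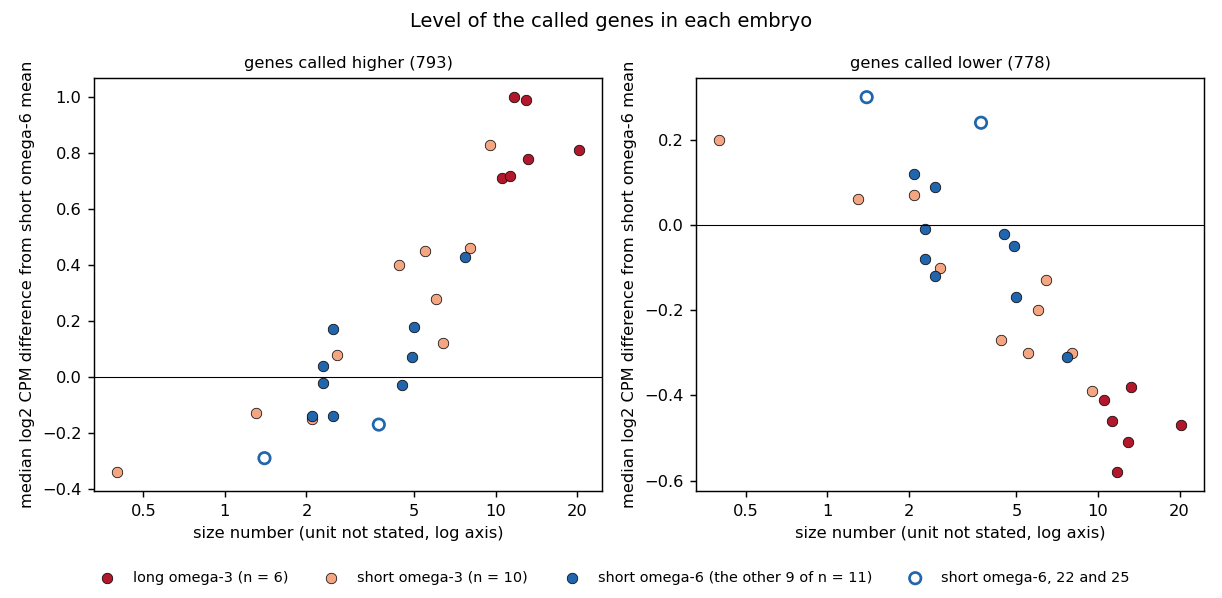
Median difference in log2 CPM from the mean of the short omega-6 embryos (y) over the 793 genes called higher and the 778 called lower in the 17 compared embryos, for each of the 27 embryos, against the size number (x, log axis, unit not stated). Long omega-3 embryos lie at 0.71 to 1 and -0.58 to -0.38, apart from short omega-6 embryos by choice of the genes. Short embryos of both diets spread along the size number, with levels that differ at like size. Over higher genes short omega-3 embryos 08, 03, 15 and 17 (size numbers 4.4, 5.5, 6 and 6.4) lie at 0.4, 0.45, 0.28 and 0.12. Short omega-6 embryos 24, 28 and 23 (4.5, 4.9 and 5) lie at -0.03, 0.07 and 0.18. The difference between diets at like size was not tested here.

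Whether these genes also followed size among embryos in neither group was tested in the 10 short omega-3 embryos, which span 4.57 doublings of the size number under 1 diet and share no library with the 17. Of the 793 genes called higher in long embryos 766 (96.6%) rose with size there, with a median slope of 0.23 log2 units per doubling, and 408 (51.5%) passed edgeR's test of the slope upward. Over all 11684 genes 51% had a positive slope, the median slope was 0.003, and 1155 (9.89%) passed upward. Of the 778 genes called lower 750 (96.4%) fell with size, with a median slope of -0.12, and 422 (54.2%) passed downward, against 1080 (9.24%) of all genes, or 2235 (19.1%) in both directions together. None of the 1571 genes passed in the opposite direction with all 10 embryos. Leaving out an extreme embryo left the slope's sign as it was in most of the 1571 genes (1510 without the smallest, 14, and 1498 without the largest, 11), but fewer slopes passed. Without 14, 97.2% of the slopes had the direction of the group difference and 192 passed in it, where 190 genes rose and 132 fell among all 11684. Without 11 the values were 92.1% and 549, with 777 rising and 691 falling among all genes, and 1 of the 1571 passed in the opposite direction. Genes chosen without embryos 22 and 25 (2566 in 15 embryos) gave 94.9% in the same direction, with 1160 passing in it and 2 in the opposite one. Of the named genes, ENSBTAG00000022671 rose by 1.04 ± 0.21 (SE) per doubling (edgeR adjusted p = 0.00798) and ENSBTAG00000008493 fell by 1.02 (SE 0.09, edgeR adjusted p = 0.000167). ENSBTAG00000000369 rose by 0.63 ± 0.20 (edgeR adjusted p = 0.047), and the slope of ENSBTAG00000012275, -0.69 ± 0.24, did not pass (adjusted p = 0.071). Single embryos decided some of these calls. Without embryo 14 the slope was 1.04 for ENSBTAG00000000369 (edgeR adjusted p = 0.0961) and 1.11 for ENSBTAG00000022671 (adjusted p = 0.0805), neither of which passed, and -1.18 for ENSBTAG00000012275, which then did (adjusted p = 0.046). Without embryo 11 ENSBTAG00000000369 did not pass either, at 0.47 (edgeR adjusted p = 0.163). ENSBTAG00000008493 passed in both cases, at -0.97 (edgeR adjusted p = 0.0251 without 14 and 0.000771 without 11).

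Size could also be varied on the omega-6 side. Against the 6 short omega-6 embryos with size numbers under 3.7, edgeR called 2452 genes, 1176 higher and 1276 lower in long embryos. Against the 5 with size numbers of 3.7 or more, which include embryo 22, it called 0 genes (3222 had an unadjusted p under 0.05), while DESeq2 called 1099 and limma-voom 1590. Leaving out 22 also gave 0 by edgeR and 2395 genes under 0.05 before adjustment. Over the 2292 genes called against all 11, the median size of the change was 0.55 against the smaller embryos and 0.53 against the larger ones, with median SE of 0.16 and 0.18. With 25 left out of the smaller and 22 out of the larger embryos it was 0.5 and 0.38. The 2292 genes were chosen with all 11 in the fit, so these medians are affected by that choice. ENSBTAG00000012275 differed by -2.99 from the larger embryos (edgeR adjusted p = 0.0534) and ENSBTAG00000000369 by 3.38 (adjusted p = 0.057). ENSBTAG00000022671 differed by 2.61 (edgeR adjusted p = 0.0675) and ENSBTAG00000008493 by -1.86 (adjusted p = 0.125). None of the 4 was called by edgeR. DESeq2 called the first 3, with adjusted p of 0.000601, 0.000492 and 0.0055, and not ENSBTAG00000008493 (0.079), and limma-voom called all 4, with adjusted p of 0.011, 0.0149, 0.011 and 0.0302. Against the smaller embryos the differences, in the same order, were -3, 4.3, 3.31 and -3.45, all called by edgeR. The difference between the larger and smaller omega-6 embryos was not itself tested here.

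With log2 of the size number in the model, edgeR called 0 genes. There were 944 at an unadjusted p below 0.05, and DESeq2 called 20 and limma-voom 1. Over the 2292 genes the median size of the group difference fell from 0.55 to 0.26 and the median SE rose from 0.16 to 0.18. The 2292 genes were chosen by the fit without size, so part of this fall may come from that choice. For ENSBTAG00000000369 the difference was 2.61 (edgeR adjusted p = 0.233; 2.67 and called by DESeq2, adjusted p = 0.0271; 2.49 by limma-voom, adjusted p = 0.147), for ENSBTAG00000022671 1.19 (adjusted p = 0.573), for ENSBTAG00000012275 -1.99 (adjusted p = 0.362) and for ENSBTAG00000008493 -0.39 (adjusted p = 0.8). Size numbers of the compared groups do not overlap, the largest short omega-6 embryo being at 7.7 and the smallest long one at 10.5, so this fit takes the slope to hold across that gap.

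**Figure D5:**
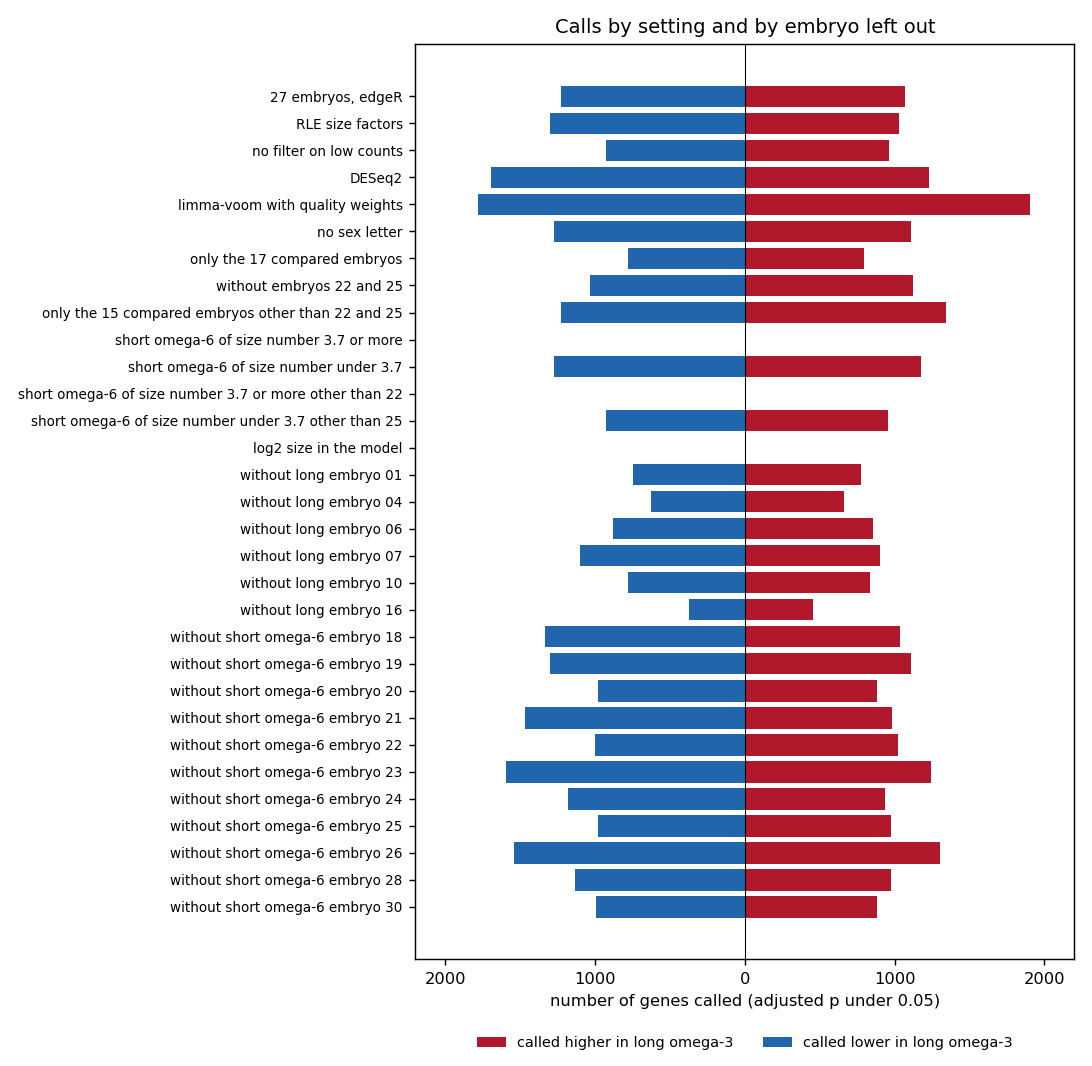
Number of genes called higher (red, to the right) and lower (blue, to the left) in long omega-3 embryos under each setting and with each single embryo left out, by edgeR except where DESeq2 or limma-voom is named. Counts run from 0 with size in the model or against the larger short omega-6 embryos to 3688 with limma-voom, and leaving out long embryo 16 gives 827.

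Embryos 22 and 25 changed which genes were called more than how many. Both fits called 1757 genes, 76.7% of those called with the 2 embryos and 81.6% of those called without. The 530 genes called only with them were mostly lower in long embryos (367, against 163 higher), and their median change fell from 0.45 to 0.28 when the 2 embryos were left out. In 94.3% of these genes embryo 22, and in 94.7% embryo 25, lay on the side of the other 9 short omega-6 embryos away from the long embryos. The 397 genes called only without them changed by a median of 0.27 with the 2 embryos and 0.37 without, and the median SE fell from 0.15 to 0.11. In these genes embryo 22 lay away from the long embryos in 7.3% and embryo 25 in 13.9%, so both mostly lay toward them. Both sets were chosen by whether the 2 embryos changed the call. Their shares and shifts in median are therefore largely set by that choice and test nothing. In the genes called in both fits, embryo 22 lay away in 71.1% and embryo 25 in 78.3%. Over the 1757 genes called in both fits the median change was 0.59 with and 0.51 without the 2 embryos, and no gene changed sign.

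The groups differed in how far counts were gathered in few genes. The 10 most counted genes of each embryo held 17.88 ± 0.548% of its counts in long omega-3 embryos (SD, n = 6) and 15.16 ± 1.49% in short omega-6 embryos (SD, n = 11), a difference of 2.72 percentage points (two-sided exact permutation p = 0.00121, adjusted 0.00363 over 3 measures). Embryo 26, at 18.3%, was the only short omega-6 embryo within the range of the long embryos, 17.3% to 18.8%. Single genes weigh heavily in this share. The gene ranked 3 had means of 31700 CPM in long omega-3 and 11800 CPM in short omega-6 embryos, and 31300 CPM in embryo 26. For the most counted gene the means were 51300 and 52700 CPM. The difference in share without the gene ranked 3 was not tested. Without embryos 22 and 25 the difference was 2.45 (exact permutation p = 0.004, adjusted 0.012). Short omega-3 embryos held 15.42 ± 1.69% (SD, n = 10). At an equal depth of 17931620 counts, detected genes numbered 13780 ± 94 in long omega-3 and 13770 ± 258 in short omega-6 embryos (SD, n = 6 and 11; exact permutation p = 0.949, adjusted 0.949). No gene was near absence in one group and present throughout the other. In either direction, 0 genes had at most 3 counts in every embryo of one group and 10 or more in every embryo of the other. Without the demand on the other group, 5 genes with at most 3 counts in every long embryo were called lower. Called higher with at most 3 counts in every short omega-6 embryo were 0 genes.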

How the data were processed

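The authors deposited raw read counts, as whole numbers without normalisation, of 19994 Ensembl cattle gene identifiers in 1 library per embryo. A stranded mRNA kit and single 100 bp reads were used, per the labels' protocols. STAR and featureCounts are named, without versions, in the submitters' processing notes; the genome build, annotation and strand setting were not given in the sources used here. Reads shared by near-identical genes may be split in ways not stated.

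Counts were tested with edgeR 4.0.16 (R 4.3.3). Low counts were removed with filterByExpr over the 3 groups (count 10, total 15, proportion 0.7), scaling was by TMM (edgeR's trimmed mean method), and a quasi-likelihood F-test compared long omega-3 with short omega-6 embryos, two-sided, with group and the letter for sex as terms, using all 27 embryos. P-values were adjusted by Benjamini-Hochberg over all tested genes, and 0.05 was the threshold. The standard error (SE) is the absolute log2 fold change divided by F's square root. Principal components used log2 CPM with a prior count of 2. The slope on log2 size was fitted in the 10 short omega-3 embryos, on the genes tested in a fit of the 17 compared embryos alone. The fits were tested on simulated counts. Alternatives were DESeq2 1.42.0, limma 3.58.1 (voom with sample quality weights), other scaling, filters, covariates and embryos. Fits against the larger or smaller short omega-6 embryos without 22 or 25, fits with size or against the larger embryos with the other tools, and the slope without embryo 11 (and of the named genes without 14) were chosen after seeing the data.

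By rule, genes named were called with and without embryos 22 and 25, had groups that did not overlap over all 17 embryos and a mean of at least 5 CPM in the higher group, and had the largest log2 fold changes. The groups, rule and gene lists were chosen with earlier results of these data known. The files do not pair identifiers with names and 0 of 19994 matched the RefSeq table used here (assembly ARS-UCD2.0), so the 14 gene lists and the cell type markers could not be looked up, no more than 2 identifiers in each direction are printed, and no sequences are shown. The 136 pairs of libraries among the compared embryos had chi-square values per degree of freedom no lower than 18.2 (median 98.8), so none was a copy of another.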

Additional observations from a re-analysis of the deposited data

Results flagged for a closer look

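Of 20 sets of values examined for a single embryo far from the rest (10 measures in each of the long and short omega-3 groups), 4 held one, where chance gives about 1 in 20. That rate is for independent sets of normally spread values. Here the same embryos recur in the sets of a group, and the short omega-3 embryos differ widely in size. No excess over chance can therefore be read from the count. ENSBTAG00000000369 was 4.73 CPM in short omega-3 embryo 11, against at most 2.21 in the other 9. ENSBTAG00000022671 was 9.81 CPM in the same embryo, against at most 4.12. ENSBTAG00000008493 was 87.1 CPM in short omega-3 embryo 14, the smallest of the series, against at most 20.2. The gene ranked 3 by mean CPM was 39900 CPM in long embryo 04, against at most 31200 in the other 5 long embryos. Embryo 11 has the largest size number of its group and embryo 14 the smallest.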

How the results depend on the processing

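No paired analysis was possible because embryo numbers do not repeat across groups. Called genes numbered 3688 with limma-voom, 0 against the larger short omega-6 embryos (0 also without 22; 1099 with DESeq2) and, with log2 size in the model, 0 by edgeR, 20 by DESeq2 and 1 by limma-voom. The 470 genes at least 2-fold changed became 1054 at 1.5-fold, 0 against the larger embryos with or without 22 (198 with DESeq2, 295 with limma-voom), and 0, 16 and 1 with size in the model. Genes free of overlap, 322 in all, numbered 565 against the 5 larger embryos (867 without 22) and 1198 against the 6 smaller (1375 without 25); fewer embryos leave more room for such genes. Genes whose slope in short omega-3 embryos passed in the same direction, 830 in all, numbered 192 without embryo 14 and 549 without 11. Leaving out 1 long embryo gave 827 to 2007 calls, 248 to 460 at least 2-fold changed and 343 to 508 free of overlap. Leaving out 1 short omega-6 embryo gave 1862 to 2843, 406 to 578 and 325 to 628. The difference in the share of the 10 most counted genes ran from 2.54 to 3.04 over these single-embryo leave-outs. It was 2.12 against the larger short omega-6 embryos (exact permutation p = 0.0216, not adjusted) and 3.22 against the smaller ones. The causes of these moves were not tested. Size factors as in DESeq2, no filter on low counts, no sex letter, DESeq2, and the fits on 17 and 15 embryos kept the count of calls within 1.5 times 2292. No named gene changed direction under any setting. Diet and size cannot be told apart, dams are unnamed, and genes with few counts carry wide errors.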

Other observations

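The genes called higher held 9.38% to 12.3% of each long omega-3 embryo's counts (median 9.91%) and 3.53% to 8.82% of each short omega-6 embryo's (median 4.9%). Much of this was the gene ranked 3; without it the ranges were 6.49% to 8.36% and 3% to 5.75%. The genes called lower held 15.5% to 16.9% in long omega-3 and 17.4% to 24.7% in short omega-6 embryos. These genes were chosen for that difference, so the shares describe how much of the library it took up and test nothing. Short omega-3 embryos, which are in neither group, held 3.49% to 10.5% in the higher and 16.6% to 24.9% in the lower genes.

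Long embryos had the smallest spread of the 3 groups, though by little once embryos 22 and 25 were left out. Over 8826 genes with a mean of at least 5 CPM, the median standard deviation of log2 CPM was 0.166 in long omega-3 embryos, 0.202 in short omega-3 and 0.325 in short omega-6 embryos. Without embryos 22 and 25 it was 0.193 in short omega-6 embryos. These are descriptions over genes and were not tested. Size numbers of the long embryos, 10.5 to 20.3, also covered the fewest doublings. They ran from 1.4 to 7.7 in short omega-6 and from 0.4 to 9.5 in short omega-3 embryos. The part of size in the spread was not tested. When the 15 compared embryos other than 22 and 25 were ordered by their own first principal component (32.9% of the variance), long embryos lay between -40.1 and -21.7, embryo 26 at -12.7, and the other 8 short omega-6 embryos between 5.27 and 41.7.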
